A study of Mus musculus with 10 samples.

Results

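The genes described here belong to the machinery that folds proteins in the cell, marks unwanted ones with ubiquitin and takes them apart. They are 119 of the 5030 probes on a plastic expression array of the mouse (Clontech Atlas, hybridized with radioactively labelled cDNA), chosen by gene symbol alone: heat shock proteins and their factors, Hsp40 co-chaperones (Dnaj), chaperonin subunits (Cct, Tcp1), FK506-binding proteins and cyclophilins, proteasome subunits (Psma to Psme), ubiquitin-activating, conjugating and ligating enzymes with their cullin, Skp and F-box parts, deubiquitinating enzymes (Usp, Uch) and Sumo. Psmb8 and Psmb9 were left out by the rule. The probes stand for 118 genes, since Tcp10a had 2 probes. The letters of the rule also took Tcp10a, Tcp10b and Tcp11, t-complex genes that are not chaperonin subunits, and they are kept apart here.

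Chaperones hold or fold newly made and damaged proteins; the small and large heat shock proteins are driven in stressed cells by heat shock factors. A protein to be destroyed receives a chain of ubiquitin through an activating enzyme (E1), a conjugating enzyme (E2) and a ligase (E3), deubiquitinating enzymes take the chain off again, and the proteasome, a barrel of alpha and beta subunits with regulator caps, degrades the tagged protein. Inflammatory signals use the same route, because the inhibitor of NF-kappaB is removed by it, and interferon changes the subunits of the barrel and its cap.

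The study compared wild type (WT, C57BL/6J) female mice with mice lacking PAR1 (PAR1-/-, the thrombin receptor encoded by F2r, a line enriched in the C57BL/6J background). Under anesthesia the bladder was instilled through the urethra with saline, with Escherichia coli lipopolysaccharide (LPS, serotype 055:B5, 100 µg/ml) or with substance P (SP, a neuropeptide), and the bladders were taken 4 h or 24 h later, or at 24 h for saline. The labels give SP as 10 µM in WT and 20 µM in PAR1-/- mice, whereas the methods give 10 µM for all. Each of the 10 conditions was 1 pool of 8 whole bladders on 1 array, so no comparison of 2 arrays has a replicate error, a ratio carries no p-value, and the 4 h arrays have only a 24 h saline array to be compared with. In a whole organ, fewer cells of a type and less RNA per cell cannot be told apart. The question was which changes after LPS or SP need PAR1.

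The values used are whole-number spot intensities rebuilt from the deposited scores for 4937 of the 5030 probes, 114 of the 119 members among them. Total intensity ran from 68335 to 267066 per array and was lowest in both saline arrays and the WT SP 24 h array. Between 12.7% and 46.0% of the probes stood above background, the lowest share being that of WT LPS 24 h, where 4301 probes carry the same value of 15 and the next value is 29. On 6 arrays, all at 24 h, the lowest value is shared by probes that are bright elsewhere, and it was treated as not read. F2r itself, the disrupted gene, read 10, 195, 15, 22 and 11 on the WT arrays (saline, LPS 4 h, LPS 24 h, SP 4 h, SP 24 h), above background only after LPS at 4 h, and 11, 17, 18, 51 and 21 on the PAR1-/- arrays, above background on both SP arrays. The position of this probe relative to the disrupted part of F2r is not stated in the methods, so it does not check the labels, and the genotypes below are those of the labels. Among markers of the tissue, Acta2 of smooth muscle, Cdh1 of epithelium and Tie1 of endothelium were above background on all 10 arrays, and Upk2 of urothelium on 4. Of the other endothelial markers Tek was above it on 2 and Eng on 1, and Pecam1, Kdr and Flt1 on none. Of the leukocyte markers Csf1r was above it on 9 arrays, S100a9 on 7, Itgb2 on 5 and Ptprc on 4, and Cd68, Cd14, Cd3e, S100a8 and Lyz1 on none. The 9 leukocyte probes, 4 of them above background on any array, summed to 118 and 100 on the saline arrays and to 104 to 230 on the challenged ones, and their part in the results below was not tested. The gene names of the probes come from the platform annotation. The median correlation over the arrays was 0.14 for 34 pairs of probes named for 1 gene, beside 0.26 for 2000 random pairs. The median level of 33 ribosomal protein probes lay at percentile 54.3, beside 58.0 for 16 odorant receptor probes. Which gene each probe measures is therefore uncertain, and every gene below is named by that annotation alone.

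Of the 114 members with intensities, 87 stood above background on at least 1 array, 14 on all 10 and 27 on none. The number above background was 37 of 114 in WT saline, 58 and 18 on the WT LPS arrays (4 h, then 24 h) and 54 and 51 on the WT SP arrays. In PAR1-/- mice it was 50 of the 111 read in saline, 61 and 51 (of 111) after LPS, and 59 and 52 after SP, in the order 4 h and 24 h. WT LPS 24 h was thus the array that measured the fewest members, as it did for all probes. By family, 7 of 8 chaperonin probes with intensities, 10 of 11 conjugating enzymes, 10 of 13 subunits of the proteasome core, 10 of 14 deubiquitinating enzymes and 10 of 15 ligase parts were above background on some array. The 27 that were nowhere above background include the core subunits Psmb3, Psmb5 and Psmb6, the ligase parts Skp1 and Mid1, the heat shock protein Hsph1 and the interferon-induced protease Usp18.

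**Figure D1:**
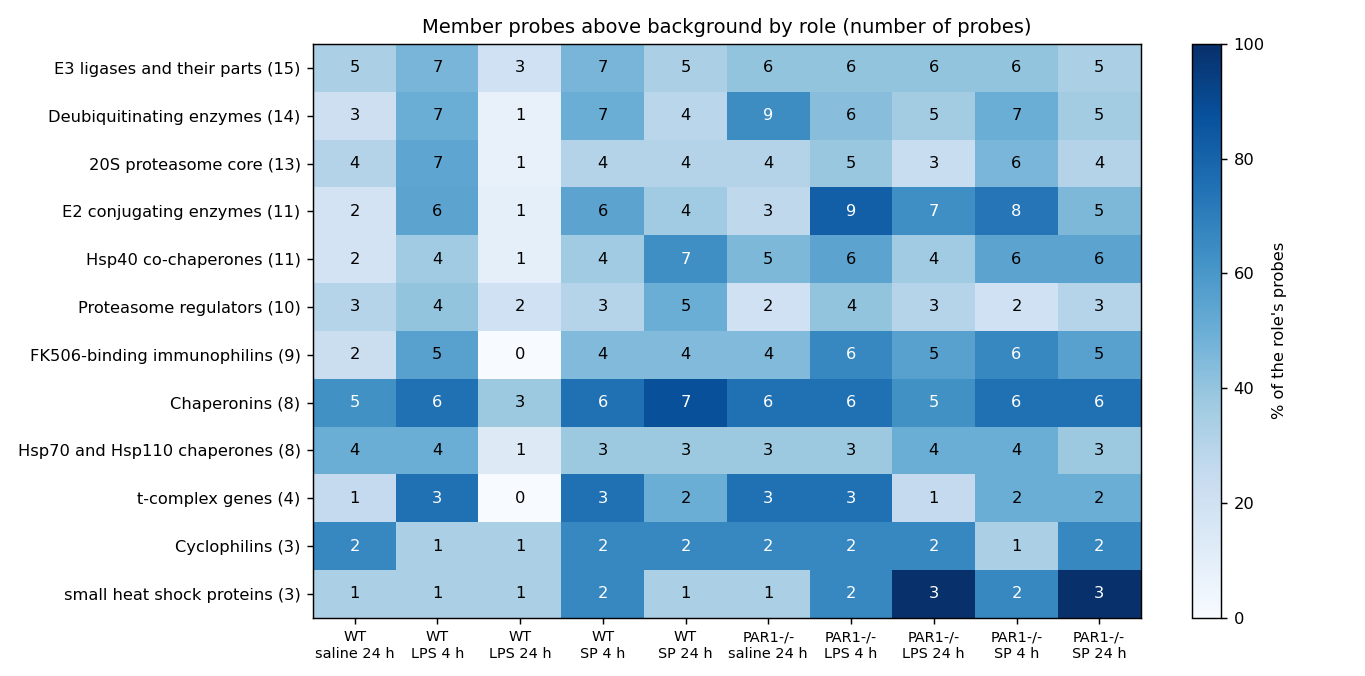
Number of member probes above background on each of the 10 arrays (columns) for each role with at least 3 probes (rows, number of probes with intensities in brackets); the colour gives the percentage of the role's probes. Counts were lowest on the WT LPS 24 h array (18 of 114 over all roles) and highest on the PAR1-/- LPS 4 h array (61 of 114).

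A ratio below is the normalized intensity of a challenged array over that of the saline array of the same genotype. Where 1 of the 2 values was not above background, the ratio is a bound, written as at least or at most. In the 8 comparisons 77 members had a ratio or a bound at least once. On the WT LPS 4 h array 2 of the 55 members with a value lay more than 3-fold above saline and 2 more than 3-fold below, which is 3.64% each way, beside 5.44% above and 1.18% below among all 2205 probes with a value. After SP at 4 h, 0 of 50 lay above and 1 lay below (2.00%), beside 4.00% and 1.16% of all probes. At 24 h no member passed 3-fold in WT mice, of 29 after LPS (all probes 1.31% above and 0.202% below) and of 43 after SP (0.384% and 0.329%). In PAR1-/- mice 1 of 59 members lay above and 1 below after LPS at 4 h (1.69% each, all probes 1.40% and 1.03%). No member of 63 passed 3-fold after LPS at 24 h (all probes 1.13% and 1.04%). After SP at 4 h it was 1 of 57 each way (1.75%, all probes 0.848% and 1.40%), and after SP at 24 h 2 of 60 above (3.33%, all probes 1.32%) and 0 below (all probes 0.992%). These shares are small counts on single arrays and lie near those of all probes. The median member moved little: the WT medians were 1.11 (LPS 4 h), 0.813 (LPS 24 h), 0.916 (SP 4 h) and 1.05 (SP 24 h), beside 1.06, 0.928, 0.947 and 0.998 over all probes. The PAR1-/- medians were 0.906, 0.944, 0.762 and 0.864 in the same order, beside 0.933, 0.997, 0.844 and 0.927.

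**Figure D2:**
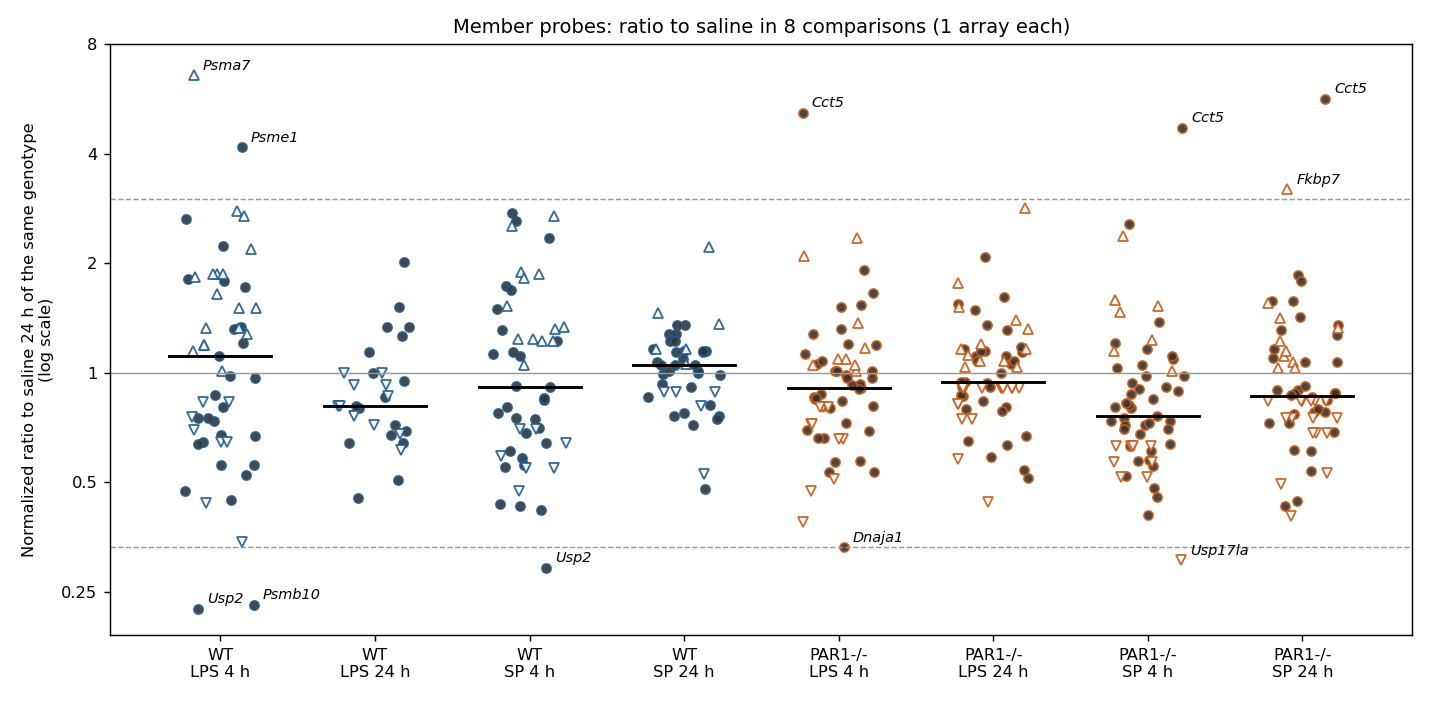
Normalized ratio to the saline array of the same genotype (y axis, log scale) of every member with a value in each of the 8 comparisons (x axis). Filled circles are ratios, open triangles pointing up are lower bounds, open triangles pointing down upper bounds, black bars the medians and dashed lines 3-fold; most members lie between 0.5 and 2, and the named ones passed 3-fold, Psma7 at least 6.57 being the highest.

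The members beyond 3-fold were Psma7, Psme1, Psmb10 and Usp2 in WT mice, and Cct5, Dnaja1, Fkbp7 and Usp17la in PAR1-/- mice. The study took as downstream of PAR1 the genes with a ratio above 3 in WT mice that were not altered in PAR1-/- mice. Not altered was read here as no ratio or bound beyond 3-fold in PAR1-/- mice, a limit that is a choice of this count. Psma7 and Psme1 were then selected, 2 of the 77 members, where 4.60% of 2914 probes were. Neither is in the study's own list of PAR1-dependent genes. The members in that list, Ube2h, Ubr1, Mid2, Cul3, Skp1, Hspb1, Fkbp1a and Ppia, were not selected by this count. For Fkbp1a and Ube2h the study also reported more transcription in WT bladders after PAR1- and PAR2-activating peptides. That came from PCR of chromatin, another measure and stimulus than these arrays. Psme1 had measured ratios in PAR1-/- mice, whereas those of Psma7 were lower bounds, so that Psma7 is not shown to have stayed within 3-fold there. With the genotypes exchanged, Cct5 and Fkbp7 were selected, where 1.48% of all probes were; Fkbp7 had no value on the WT LPS 24 h array. Neither count tests whether the genotypes differ.

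**Figure D3:**
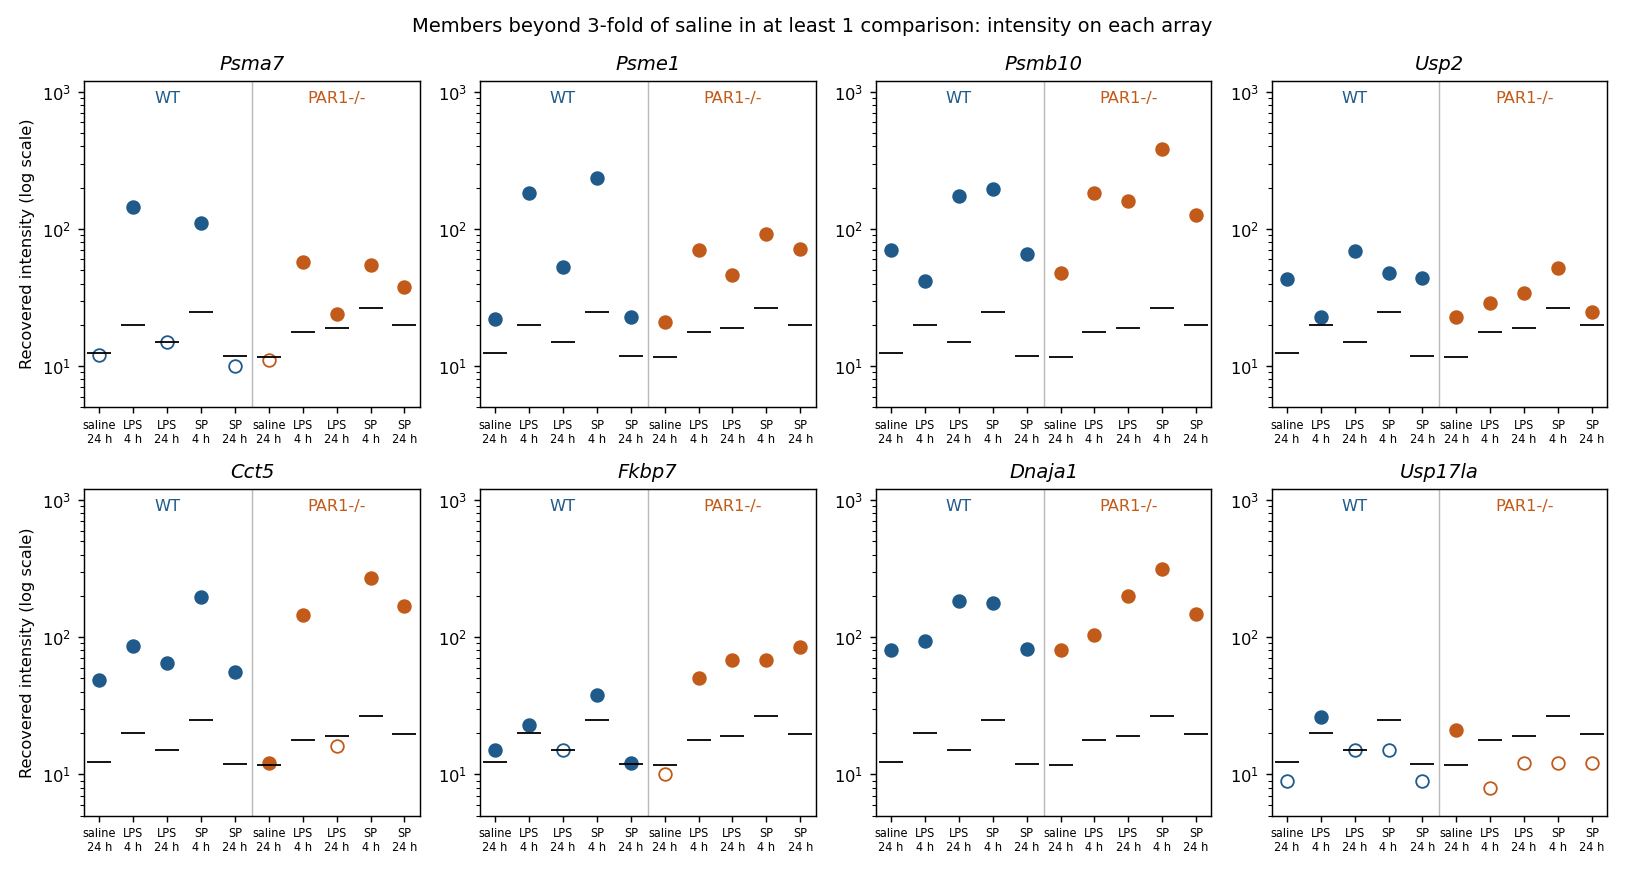
Recovered intensity before normalization (y axis, log scale) on each array (x axis) of the 8 members beyond 3-fold; blue is WT and orange PAR1-/-, filled points are above background, open points are not, and short bars give each array's background threshold. Psma7 read 144 and Psme1 182 on the WT LPS 4 h array, against 12 and 22 in WT saline, and Cct5 read 12 in PAR1-/- saline against 49 in WT saline.

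Psma7, an alpha subunit of the proteasome core, had the highest ratio of any member. In the order saline, LPS 4 h, LPS 24 h, SP 4 h and SP 24 h, used for each gene below, it read 12, 144, 15, 110 and 10 in WT mice and 11, 57, 24, 55 and 38 in PAR1-/- mice. It was above background on both 4 h arrays of WT mice and on none of their 24 h arrays, while all 4 challenged PAR1-/- arrays were above it. On the WT 4 h arrays the ratio was at least 6.57 with LPS and at least 2.70 with SP, and in PAR1-/- mice it was at least 2.35, 1.16, 1.23 and 1.56 on the 4 challenged arrays. Since both saline arrays read it under background, these are lower bounds and do not order the genotypes.

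Psme1 encodes the alpha subunit of the interferon-inducible cap (PA28) of the proteasome. Its intensity was 22, 182, 53, 237 and 23 in WT mice and 21, 70, 46, 92 and 71 in PAR1-/- mice. All 10 values were above background, so these are ratios and not bounds: 4.16, 1.34, 2.62 and 1.05 in WT mice, and 1.32, 0.944, 0.892 and 1.27 in PAR1-/- mice. Both WT arrays at 4 h stood above both at 24 h, and above all 4 challenged PAR1-/- arrays in the ratio. Psmb9, an interferon-inducible core subunit that the rule left out, had ratios of 1.04 and 1.07 on the same WT arrays at 4 h, Psmb8 and Tap1 were above background on no array, and of these neighbours in function none passed 3-fold.

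The promoters of both genes (RefSeq, GRCm38.p6, 250 bases before to 50 after the start of transcription) are shown because these members alone were selected by that count. They were searched on both strands for the interferon-stimulated response element written GAAANNGAA, which 9.76% of 27025 genes with a promoter hold. Psme1 (chr14:55578244-55578543, + strand) holds 1 match, in capitals, just after its start site, and Psma7 (chr2:180042415-180042714, - strand) holds none; a match of letters is not a bound site.
Psme1: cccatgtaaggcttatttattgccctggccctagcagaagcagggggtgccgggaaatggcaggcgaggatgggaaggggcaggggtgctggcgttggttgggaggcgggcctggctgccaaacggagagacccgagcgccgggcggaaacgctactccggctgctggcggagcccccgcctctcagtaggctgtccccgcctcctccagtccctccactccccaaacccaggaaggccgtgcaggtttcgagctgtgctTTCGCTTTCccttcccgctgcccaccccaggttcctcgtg
Psma7: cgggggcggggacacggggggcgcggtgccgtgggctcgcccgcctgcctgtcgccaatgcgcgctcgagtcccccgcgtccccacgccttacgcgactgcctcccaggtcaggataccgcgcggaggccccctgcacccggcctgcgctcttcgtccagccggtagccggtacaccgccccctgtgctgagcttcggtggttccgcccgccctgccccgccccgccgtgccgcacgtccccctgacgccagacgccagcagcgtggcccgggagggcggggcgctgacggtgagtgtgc

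Psmb10, the interferon-inducible beta subunit that replaces Psmb7, read 70, 42, 174, 196 and 66 in WT mice and 48, 182, 161, 381 and 126 in PAR1-/- mice. Its ratio was 0.231 on the WT LPS 4 h array (0.600 without normalization), the only one past 3-fold, with 1.26, 0.550 and 0.913 on the other WT arrays and 0.726 to 1.06 in PAR1-/- mice. Psma5, an alpha subunit, had a ratio of 0.557 on the WT LPS 4 h array and 0.534 to 0.808 in PAR1-/- mice. Psma3 was above background on the PAR1-/- SP 4 h array alone, where it read 118 against 11 in saline, a ratio of at least 2.37. Psmb1, a beta subunit, read 17 in PAR1-/- saline, and 14, 15, 27 and 14 after challenge, with a ratio of 0.406 on the SP 4 h array and upper bounds of 0.512 to 0.579 on the others; in WT mice it was above background on 2 of 5 arrays and had no value. Of the regulators, Psmd10, an ankyrin-repeat chaperone of the cap also called gankyrin, read 9 in WT saline and 60 after LPS at 4 h, at least 2.69. Psmd7, a non-ATPase subunit of the cap, was above background on all arrays with a ratio of 2.01 after LPS at 24 h in WT mice, the highest of any member on that array, and of 0.852 to 1.55 in PAR1-/- mice. Over the 5 core subunits above background often enough to be compared, the median correlation between pairs over the arrays was 0.00, against 0.18 over all pairs of tested probes; arrays share their conditions, and this is a description only.

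Usp2, a deubiquitinating enzyme known from circadian and growth control, lay below saline in all but 1 comparison after normalization. Its intensities were 43, 23, 69, 48 and 44 in WT mice and 23, 29, 34, 52 and 25 in PAR1-/- mice. The normalized ratios were 0.225, 0.802, 0.292 and 1.01 in WT mice and 0.534, 0.648, 0.484 and 0.444 in PAR1-/- mice. The measured intensity was lower than in saline only on the WT LPS 4 h array (23 against 43). In WT mice it was higher after LPS at 24 h (69) and after SP at 4 h (48). It was also higher on each challenged PAR1-/- array (29, 34, 52 and 25 against 23), so that these falls rest on the normalization. Without normalization the ratio after SP at 4 h in WT mice is 1.12. After LPS at 4 h the ratio was 0.535 without it. In saline Usp2 was lower in PAR1-/- than in WT mice, at a ratio of 0.513.

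Uchl3 and Usp21, a ubiquitin hydrolase and a ubiquitin-specific protease, were the only members, of 26 with a value in all 8 comparisons, whose 4 WT values all lay below saline and whose 4 PAR1-/- values all lay above. The share of all probes with this pattern was not counted, so whether it is unusual among the members is not known. Uchl3 read 22, 16, 15, 30 and 12 in WT mice and 12, 28, 37, 135 and 40 in PAR1-/- mice. Its ratios were at most 0.439, at most 0.680, 0.437 and 0.480 in WT mice, and 1.20, 1.62, 2.57 and 1.57 in PAR1-/- mice. Usp21 read 20, 26, 15, 25 and 11 in WT mice and 13, 26, 28, 64 and 32 in PAR1-/- mice, with ratios of 0.644, at most 0.762, 0.419 and at most 0.526, and of 1.01, 1.15, 1.21 and 1.16. For both genes the PAR1-/- saline array read lower than the WT saline array, at ratios of 0.496 and 0.617, and each set of 4 ratios shares that 1 saline array. The interaction of genotype and challenge was 1.74 ± 0.60 (SE, log2) for Uchl3 and 0.98 ± 0.54 for Usp21, with limma's adjusted p of 0.999 for each. Without normalization the WT values no longer all lay below saline, at 2 of 3 for Uchl3 and 1 of 3 for Usp21, and with a shift of each array in place of the regression 0 of 4 PAR1-/- values of Usp21 lay above saline.

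**Figure D4:**
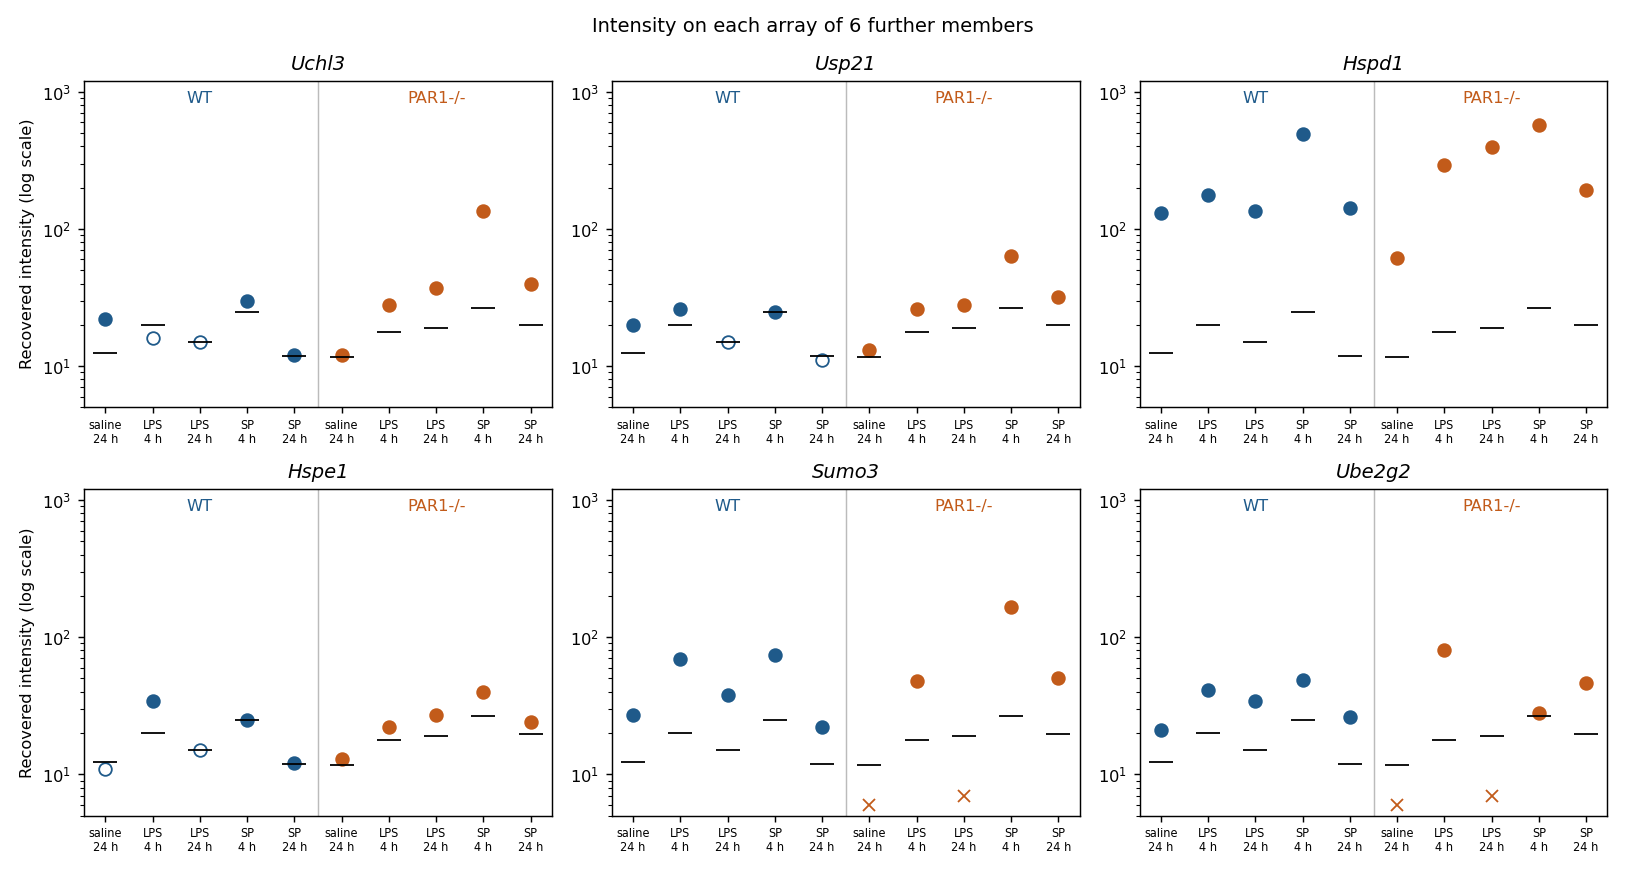
Recovered intensity before normalization (y axis, log scale) on each array (x axis) of 6 further members, with colours, points and background bars as in the plot of the members beyond 3-fold; crosses are values treated as not read. Uchl3 read 22 in WT saline and 12 in PAR1-/- saline and reached 135 after SP at 4 h in PAR1-/- mice; Sumo3 and Ube2g2 carry 6 and 7 on the same PAR1-/- arrays, saline and LPS 24 h.

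Usp17la, a deubiquitinating enzyme of a family of near-identical copies whose probes may share signal, read 21 in PAR1-/- saline and 8, 12, 12 and 12 on the challenged PAR1-/- arrays, none of them above background. The ratio was at most 0.306 after SP at 4 h and at most 0.389 to 0.441 elsewhere. In WT mice it read 9 in saline and was above background after LPS at 4 h alone, at 26. Usp10, which acts on p53, was above background on no saline array and had lower bounds of 1.37 to 1.87 where it had a value.

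Among the conjugating enzymes and ligases no ratio or bound passed 3-fold. Ube2h, an E2 enzyme, had the highest, reading 10 in WT saline and 62 after LPS at 4 h (at least 2.79), and 11 in PAR1-/- saline and 20, 39, 71 and 32 after challenge, where 3 of the 4 arrays gave lower bounds of 1.33 to 1.76. Ube2e1, another E2 enzyme, had ratios of 1.11, 1.22 and 1.35 in WT mice (LPS 4 h, SP 4 h, SP 24 h) and of 0.984, 1.14, 0.572 and 0.783 in PAR1-/- mice. Ube2k, which extends ubiquitin chains, read 7 in WT saline and 42 and 44 on the 4 h arrays, at least 1.87 and at least 1.22. Ube3a, the E6-AP ligase, was above background on all 10 arrays, with 60, 197, 81, 579 and 68 in WT mice and 50, 319, 431, 228 and 368 in PAR1-/- mice. The WT ratios lay between 0.642 and 1.69, the PAR1-/- ratios between 0.636 and 2.08. Of the F-box and Skp proteins, Fbxl8 had ratios of 0.509 to 0.814 in WT and of 0.513 to 1.03 in PAR1-/- mice, and Skp2, which brings p27 to its ligase, of 0.609 to 1.34 and of 0.555 to 1.10. Cul3, a cullin scaffold, read 8, 20, 15, 30 and 11 in WT mice and had no WT value, since saline, SP 24 h and LPS 24 h were under background and the normalized 4 h values did not pass the saline threshold. Ubr1, the ligase of the N-degron pathway, had 1 ratio in WT mice, 0.777 after SP at 4 h, and upper bounds of 0.829 and 0.885, and in PAR1-/- mice ratios of 0.838, 1.15 and 0.630. Mid2, a microtubule-bound ligase, was above background on 1 of 5 WT arrays, saline at 14, and on 3 of 5 PAR1-/- arrays at 25 to 34, and Skp1 on none.

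Sumo3, a ubiquitin-like modifier, and the E2 enzyme Ube2g2 shared a pattern. Sumo3 read 27, 69, 38, 74 and 22 in WT mice and 6, 48, 7, 167 and 50 in PAR1-/- mice. Ube2g2 read 21, 41, 34, 49 and 26 in WT mice and 6, 81, 7, 28 and 46 in PAR1-/- mice. Both lay at the lowest value of the PAR1-/- saline and PAR1-/- LPS 24 h arrays and above background on the other 8. They are 2 of 20 probes at the lowest value of both arrays, the E1 subunit Uba3 being the third member, and these values were treated as not read, so that neither gene has a ratio in PAR1-/- mice. In WT mice the ratios were 0.719 to 1.21 for Sumo3 and 0.707 to 1.28 for Ube2g2.

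Cct5, a subunit of the cytosolic chaperonin TRiC that folds actin and tubulin, was the only member more than 3-fold above saline in more than 1 comparison. Its intensity was 49, 86, 65, 195 and 56 in WT mice and 12, 144, 16, 272 and 168 in PAR1-/- mice. All WT values were above background, whereas in PAR1-/- mice saline lay at its threshold and LPS 24 h below it. The PAR1-/- ratios were 5.18 (LPS 4 h), 4.71 (SP 4 h) and 5.66 (SP 24 h), but at most 0.910 on the LPS 24 h array. In WT mice it was 0.738, 0.640, 0.842 and 1.15. The PAR1-/- saline array read Cct5 at a ratio of 0.188 to the WT saline array, so that all 3 PAR1-/- ratios rest on this 1 value, and against the mean of both saline arrays they fell under 3-fold, to 1.17, 1.03 and 1.30 on the log2 scale. It is 1 of 20 probes that were low on both the PAR1-/- saline and PAR1-/- LPS 24 h arrays, 14 of which, Sumo3 and Ube2g2 included, held the lowest value of both; whether Cct5 was misread there was not tested.

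No ratio or bound of the other chaperonin subunits passed 3-fold. Cct8 had ratios of 1.79, 1.00, 1.73 and 1.16 in WT mice and of 0.662 to 1.00 in PAR1-/- mice, Cct4 had 1.72, 0.919 and 0.998 in WT (LPS 4 h, SP 4 h, SP 24 h) and 0.692 to 0.845 in PAR1-/- mice, and Tcp1 reached 2.23 after LPS at 4 h in WT mice and 1.91 in PAR1-/- mice. The median ratio of the 6 chaperonin probes with a value was 1.61 after LPS at 4 h in WT mice and 1.02 in PAR1-/- mice.

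Hspd1 and Hspe1 encode the mitochondrial chaperonin Hsp60 and its lid Hsp10 and lie head to head with a shared promoter. Hspd1 read 130, 177, 136, 496 and 143 in WT mice and 61, 294, 395, 570 and 193 in PAR1-/- mice, all above background. Hspe1 read 11, 34, 15, 25 and 12 in WT mice and 13, 22, 27, 40 and 24 in PAR1-/- mice, above background on 8 arrays. Hspd1 had ratios of 0.474, 0.452, 0.582 and 1.09 in WT mice, and of 1.19, 1.49, 1.09 and 0.779 in PAR1-/- mice; in saline it was lower in PAR1-/- mice, at a ratio of 0.477. Hspe1 was at least 1.51 after LPS at 4 h in WT mice and 0.808 to 1.11 in PAR1-/- mice. After normalization the partners thus lay on opposite sides of saline on that WT array. Before it both read higher there than in saline, 177 against 130 for Hspd1 and 34 against 11 for Hspe1, so the difference in side rests on the normalization. Hspa9, the mitochondrial Hsp70, had ratios of 0.674, 0.691, 0.682 and 0.987 in WT mice and of 0.728 to 1.13 in PAR1-/- mice.

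The promoters of Hspd1 and Hspe1 (RefSeq, GRCm38.p6) are shown because the windows overlap by 285 bases, while the normalized ratios lay on opposite sides of saline on the WT LPS 4 h array. Hspd1 is at chr1:55087883-55088182 on the - strand and Hspe1 at chr1:55087898-55088197 on the + strand. Hspd1 has 2 such windows, and the one shown was taken as the first that holds the motif below. Capitals mark the core of the heat shock element, GAANNTTC, which reads the same on both strands and occurs 1 time in each window shown. It is in a promoter of 13 of the 99 member genes with a promoter in the table, 13.1%, and of 9.04% of all 27025 genes.
Hspd1: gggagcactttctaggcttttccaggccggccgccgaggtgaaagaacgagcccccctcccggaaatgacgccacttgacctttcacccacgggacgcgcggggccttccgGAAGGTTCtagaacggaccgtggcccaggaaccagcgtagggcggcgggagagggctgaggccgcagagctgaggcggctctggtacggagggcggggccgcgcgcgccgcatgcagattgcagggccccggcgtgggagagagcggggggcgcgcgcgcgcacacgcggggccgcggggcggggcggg
Hspe1: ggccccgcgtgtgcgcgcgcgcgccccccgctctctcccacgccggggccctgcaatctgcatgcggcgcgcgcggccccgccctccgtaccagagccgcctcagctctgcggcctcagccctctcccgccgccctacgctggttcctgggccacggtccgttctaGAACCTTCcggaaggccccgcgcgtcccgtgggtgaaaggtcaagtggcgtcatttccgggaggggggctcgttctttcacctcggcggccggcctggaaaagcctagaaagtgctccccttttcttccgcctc

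No ratio or bound of the small heat shock proteins or of the Hsp70 and Hsp90 chaperones passed 3-fold. Hspb1 (Hsp25), a small heat shock protein, read 10, 18, 15, 31 and 11 in WT mice and 10, 20, 28, 22 and 20 in PAR1-/- mice. It had 1 value, at least 1.32 after LPS at 24 h in PAR1-/- mice. Hspb7 of muscle was bright on every array, from 66 to 405, with ratios of 0.639 to 1.22 in WT and 0.569 to 0.730 in PAR1-/- mice. Hspa5, the chaperone BiP of the endoplasmic reticulum, read 18, 20, 15, 24 and 17 in WT mice and 18, 15, 19, 47 and 14 in PAR1-/- mice. In WT mice it had ratios of 0.560 and 0.929 (LPS 4 h and SP 24 h) and upper bounds of 0.866 and 0.474 (LPS 24 h and SP 4 h). In PAR1-/- mice its ratios were 0.542 and 0.609 and its upper bounds 0.475 and 0.494. All 8 lay below 1 after normalization. Before it the WT LPS 4 h, WT SP 4 h, PAR1-/- LPS 24 h and PAR1-/- SP 4 h arrays read higher than saline, so those falls rest on the normalization. Hsp90b1, its partner Grp94, had ratios of 1.33, 1.52, 1.11 and 1.15 in WT mice and 0.856, 0.635, 0.699 and 1.07 in PAR1-/- mice, and was higher in PAR1-/- than in WT saline, at 1.55. Hsf2, the heat shock factor measured on all arrays, had ratios of 0.718 to 1.81 in WT and of 0.751 to 1.42 in PAR1-/- mice.

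Dnaja1, an Hsp40 that works with the cytosolic Hsp70, read 80, 94, 184, 178 and 82 in WT mice and 80, 104, 201, 313 and 147 in PAR1-/- mice. Its normalized ratios were 0.447, 1.14, 0.430 and 1.01 in WT mice and 0.332, 0.589, 0.455 and 0.430 in PAR1-/- mice, the first of the latter just past 3-fold. No challenged array read it lower than its saline array before normalization, so each of these falls rests on the normalization, and without it the ratio after LPS at 4 h in PAR1-/- mice was 1.30.

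Among the other Hsp40 and Hsp70 proteins no ratio or bound passed 3-fold. Dnaja2 had only lower bounds, which leave its ratios unknown, of 1.06 to 1.82 in WT mice and of 1.05 and 1.15 in PAR1-/- mice. Dnajc3 (p58IPK), a co-chaperone of the endoplasmic reticulum, read 16, 14, 15, 20 and 19 in WT mice and 13, 14, 16, 27 and 15 in PAR1-/- mice. Its value was 1.22 on the WT SP 24 h array and otherwise at most 0.547 to 0.998 in WT mice, and in PAR1-/- mice 0.575 or at most 0.725 to 0.820. Hspa4, an Hsp110-type nucleotide exchange factor, had 0.524, at most 0.811, 0.640 and 0.749 in WT mice and 1.08, 1.08, 0.980 and 0.795 in PAR1-/- mice. Hspa2 was under background in both saline arrays and had lower bounds of 1.32 on the WT SP 4 h array and of 1.05 and 1.40 on the PAR1-/- LPS arrays.

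Of the immunophilins, prolyl isomerases that bind FK506 or cyclosporin, Fkbp7 of the endoplasmic reticulum passed 3-fold on 1 array. It read 15, 23, 15, 38 and 12 in WT mice and 10, 50, 68, 68 and 85 in PAR1-/- mice. The 4 challenged PAR1-/- arrays lay above all 5 WT arrays in intensity, and their ratios were at least 2.09, 2.83, 1.47 and 3.19 (LPS 4 h, LPS 24 h, SP 4 h, SP 24 h), beside 0.804, 0.852 and 0.763 in WT mice (LPS 4 h, SP 4 h, SP 24 h). The call on the SP 24 h array, 1.68 on the log2 scale, was lost with a shift of each array in place of the regression (1.25) and with the lowest value of 6 arrays kept as background (1.53). Fkbp1a (FKBP12) stood at least at 2.19, 2.53 and 2.21 on the same 3 WT arrays, and at 0.772 to 1.18 in PAR1-/- mice. Fkbp3 stood at 2.64 and 2.35 on the WT 4 h arrays, and at 1.11 to 1.52 in PAR1-/- mice. Ppia, cyclophilin A, read 17, 25, 15, 174 and 18 in WT mice and 13, 18, 20, 25 and 24 in PAR1-/- mice, and the WT SP 4 h array, the only one past 25, gave a ratio of 2.74. Ppic, a secretory-pathway cyclophilin, read 27, 19, 36, 53 and 35 in WT mice and 16, 31, 35, 51 and 31 in PAR1-/- mice, with an upper bound of 0.343 on the WT LPS 4 h array, where it was under background, and ratios of 0.762 to 1.06 in PAR1-/- mice. As families, the FK506-binding proteins had a median of 1.90 over 4 probes with a value after LPS and 2.35 over 3 after SP on the WT 4 h arrays, and 0.969 over 5 and 0.974 over 6 on the matching PAR1-/- arrays; these medians hold bounds and were not compared by a test.

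No ratio or bound of the t-complex genes taken by the rule passed 3-fold. Tcp11 had ratios or bounds of 0.753 to 0.928 in WT and of 0.867 to 1.54 in PAR1-/- mice. The 2 probes of Tcp10a differed in detection, 1 being above background on 5 arrays and the other on none.

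Some levels already differed between the saline arrays. Of 44 members with a value, Cct5 lay more than 3-fold below WT in PAR1-/- mice and none lay more than 3-fold above, beside 0.218% and 0.491% of all probes. Over the 29 members above background on both arrays the median ratio of PAR1-/- to WT was 0.960, and 72.4% lay within 1.5-fold, beside 0.982 and 82.6% of 1217 probes. The lowest after Cct5 were Hspd1, Uchl3 and Usp2, and the highest were Usp17la at least 2.05, Psmb1 at least 1.56 and Hsp90b1 at 1.55. By contrast WT SP 24 h was close to WT saline, with 96.9% of the members above background on both arrays within 1.5-fold, beside 81.1% of all probes.

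Because each condition had 1 array, tests were possible only across conditions, with limma on log2 intensities of the 61 members (59 for the interaction, since Sumo3 and Ube2g2 were not read in PAR1-/- saline) above background on at least 4 arrays, p-values being adjusted over all probes tested. No member had an adjusted p under 0.05 in any of 5 tests. At an unadjusted p under 0.05 the count was 4 of 61 for genotype over 5 pairs of conditions (6.56%, beside 12.4% of all probes), 9 for 24 h against 4 h over 4 pairs (14.8%, beside 12.1%), 6 for LPS against SP over 4 pairs (9.84%, beside 11.0%), 3 for the 8 challenged against the 2 saline arrays (4.92%, beside 11.9%) and 2 of 59 for the interaction of genotype and challenge (3.39%, beside 3.68%). Over all probes 0% were called for genotype, time and stimulus, 0.0970% for challenge and 0.0981% for the interaction. The lowest adjusted p of a member was 0.337, that of Hspa5 for challenge (-0.74 ± 0.28, SE, log2).

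The members nearest to a difference by limma's unadjusted p are these, each a value that did not pass the test. For genotype (PAR1-/- minus WT) they were Ppia (-0.95 ± 0.33), Usp2 (-0.87 ± 0.32), Fkbp7 (0.73 ± 0.28) and Dnajc3 (-0.46 ± 0.18), all with an adjusted p of 0.387. For time (24 h minus 4 h) Psma7 had -1.12 ± 0.39, Dnaja1 0.83 ± 0.27 and Skp2 0.60 ± 0.20, with an adjusted p of 0.397. For stimulus (LPS minus SP) Fbxl8 had -0.51 ± 0.18 and Hspe1 0.49 ± 0.19, with an adjusted p of 0.445. Values under background carry each array's own threshold, or on WT LPS 24 h the next value, 29. After normalization these are 13.3 to 28.9, so the differences above can hold gaps between them. Dnajc3 was under background in both genotypes after LPS, where its pairs gave -0.14 (4 h) and -0.59 (24 h). With a common floor, the count at limma's unadjusted p under 0.05 changed. Genotype went from 4 to 0, time from 9 to 1 and stimulus from 6 to 1. Challenge rose from 3 to 4 and the interaction from 2 to 3.

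How many members pass 3-fold depends most on the normalization between arrays. Every challenged array except WT SP 24 h was brighter than its saline array over all probes, by a median log2 ratio of 0.95 to 1.89 before normalization. Without normalization 30 members passed 3-fold in WT mice and 39 in PAR1-/- mice, all of them above saline, and none below. This was so for probes in general. In PAR1-/- SP 4 h 37 of 57 members lay above 3-fold, beside 1423 of all 2100 probes with a value. In WT SP 4 h it was 27 of 54, beside 965 of 1934, and in WT LPS 4 h 15 of 60, beside 488 of 2283. Of the 32 members under saline after SP at 4 h in PAR1-/- mice that have a value both ways, all 32 lay above saline without it. With and without normalization Psma7, Psme1, Cct5 and Fkbp7 passed 3-fold, whereas the falls of Usp2, Psmb10, Dnaja1 and Usp17la passed 3-fold only after normalization. The methods label the same amount of RNA for each array, and array brightness and challenge moved together except on WT SP 24 h. The cause of the brightness was not tested.

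**Figure D5:**
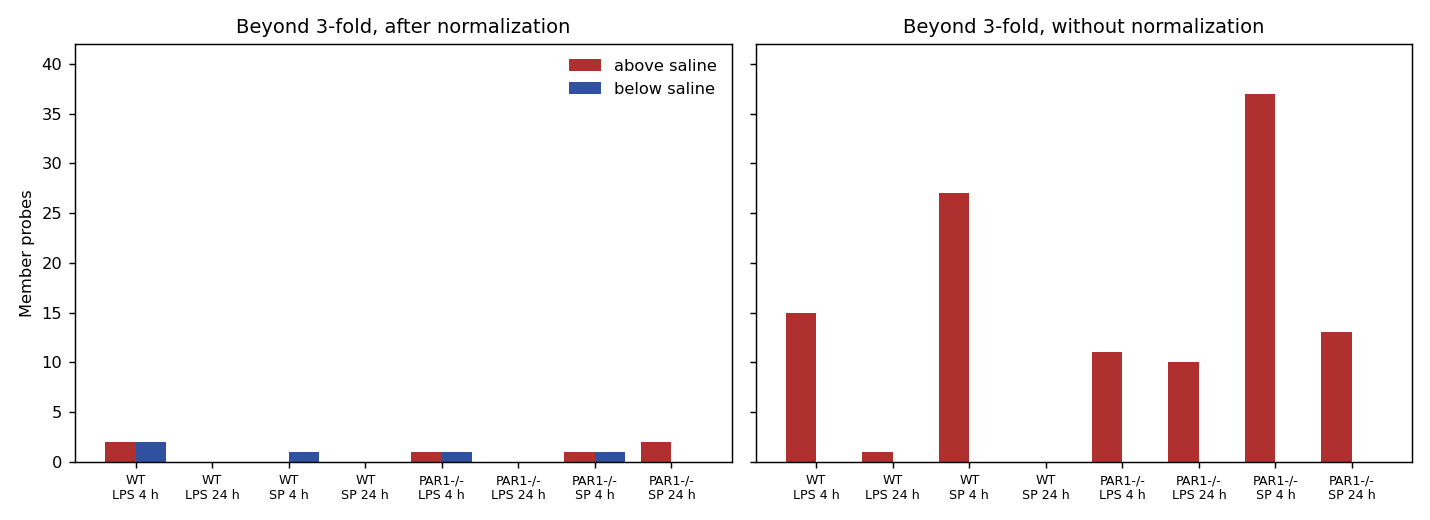
Number of member probes (y axis) more than 3-fold above saline (red) or below it (blue) in each comparison (x axis), after normalization (left) and without it (right). Without normalization up to 37 of 57 members lay above saline, in PAR1-/- SP 4 h (1423 of 2100 over all probes), and none below. After it no comparison had more than 2 either way.

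Outside the members, 55 further probes of the same pathways (ring-finger ligases, Traf6, Nedd8, Pias and prefoldin genes among them) were taken from a fixed list, and 38 were above background on some array. In each comparison 12 to 27 of them had a value, of which 0 or 1 lay more than 3-fold above saline and 0 to 2 below. Of all probes 0.384% to 5.44% lay above and 0.202% to 1.40% below. The ligase Rnf14 was below in 3 comparisons, at 0.223 (WT LPS 4 h), 0.272 (WT SP 4 h) and 0.299 (PAR1-/- LPS 24 h). Siah1b was below in 3 of PAR1-/- mice at 0.252 to 0.320, and Btrc in 1, at 0.314 on the WT LPS 4 h array. Without normalization none of these falls passed 3-fold. In those comparisons Rnf14 then stood at 0.677, 1.73 and 1.44, Siah1b at 0.881 to 1.95 and Btrc at 0.765. Xiap, an inhibitor of apoptosis with a ligase domain, was the only one above, at least 3.33 after SP at 4 h in WT mice.

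The 5 members without intensities, Cct3, Cct6b, Dnajb6, Fbxo17 and Uba1y, have only the order of their deposited scores. WT saline was the lowest array for 4 of the 5, and WT SP 24 h for Fbxo17. For Cct3 PAR1-/- saline and PAR1-/- LPS 24 h held the same lowest score as WT saline. The highest was a 4 h SP array in all 5. These scores are not normalized. The saline and WT SP 24 h arrays had the lowest total intensity and the 4 h SP arrays the highest, so this order cannot be told apart from array brightness.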

How the data were processed

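Total RNA from pools of 8 bladders was hybridized to 10 single-colour arrays, 1 per condition, and spots were read with the makers' image software. The authors deposited a score per probe and array: its log2 has mean 0 and an SD of 0.3333 over the 10 arrays of each probe, so that levels were removed. Whole-number intensities were rebuilt as the smallest whole numbers that give the deposited scores, for 98.2% of probes (checked on 2000 simulated probes, of which 99.6% were recovered and 99.9% of these correctly). Background was the mode of each array's intensities plus 3 SD, except on WT LPS 24 h, where it was the repeated value of 15. Log2 intensities were normalized by robust regression on the mean array over the 537 probes above background on all arrays (R 4.3.3, MASS). Values under background were raised to the threshold, and on WT LPS 24 h to the next value, 29. Pools allow no replicate error, and the number of arrays limits the precision.

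Ratios beyond 3-fold of saline were counted. The limma package (3.58.1) tested genotype, time and stimulus as paired differences, challenge, and the interaction over probes above background on at least 4 arrays, with Benjamini-Hochberg adjustment at 0.05; it was tested on simulated data. Probe names came from the platform annotation and promoters from RefSeq. Named genes were those beyond 3-fold, those with the extreme ratio in a comparison, those the study names, up to 4 with the highest mean per role, and those with several probes. Members and lists were chosen with earlier results of these data known. Alternatives were another normalization, threshold, floor, filter, fold or reference, and leaving out arrays.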

Additional observations from a re-analysis of the deposited data

Results flagged for a closer look

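For Uchl3 and Usp21 every WT ratio to saline lay on one side of 1 and every PAR1-/- ratio on the other. The share of all probes with this pattern was not counted. The median log2 ratio of Uchl3 was -1.12 in WT and 0.67 in PAR1-/- mice. That of Usp21 was -0.78 in WT and 0.21 in PAR1-/- mice. These medians hold bounds, each set of 4 ratios shares 1 saline array, and limma's interaction test did not call either gene (adjusted p of 0.999). With 1 array per condition, no group had enough samples to look for a sample far from the others.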

How the results depend on the processing

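Each value rests on 1 array per condition, and 27 members could not be measured over background. The number of members beyond 3-fold was 4 in WT and 4 in PAR1-/- mice, and 2 met the criterion for genes downstream of PAR1. Without normalization these became 30, 39 and 7, and the 7 held neither Psma7 nor Psme1. All probes rose as well, to 1423 of 2100 in PAR1-/- SP 4 h, beside 37 of 57 members. Shares of all probes were not counted for the 3 counts under the alternatives. Usp2 after SP at 4 h in WT mice (0.16, log2) and Dnaja1 after LPS at 4 h in PAR1-/- mice (0.38) were reversed without normalization. A shift in place of the regression gave 8 in WT and 10 in PAR1-/- mice, quantile normalization 2 in PAR1-/- mice, and a 2-fold threshold 17, 11 and 8. With a background of 2 SD, 4 met the criterion. The alternatives chosen after seeing the data left 2 in PAR1-/- mice each: keeping the lowest value of the 6 arrays as background, and taking the mean of both saline arrays as reference. Leaving out WT LPS 24 h could not change these 3 counts, because no member passed 3-fold on that array and the normalization was kept.

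In limma 0 members were called in each test. Without normalization 1 was called for time (Psma7), of 42 probes called in all, and 12 for challenge, of 445. The shift gave 1 for genotype (Ppia), of 46 in all, and values under background left as they are gave 1 for time (Psma7), of 10. A common floor gave 1 for challenge (Hspa5), of 22 in all, and 3 for the interaction (Psmb1, Usp21 and Hspa4), of 82. With no filter, 60 were called for time, of 2836 probes in all, and 1 for challenge (Usp2), of 88. There probes under background on every array carry only the thresholds. Leave-one-out fits called 0 members in each test; the interaction could not be fitted without a saline array. Of 64 further comparisons of a ratio beyond 3-fold with an alternative, 49 kept direction and side of the threshold, 13 fell under it and 2 reversed. The cause of these changes was not tested.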
